A study of Saccharomyces cerevisiae with 6 samples.

Results

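Transcript levels of 10 genes of inositol supply and phospholipid synthesis were examined in Saccharomyces cerevisiae cultures exposed to clioquinol (CQ). The genes were INO1, INO2, INO4, OPI1, OPI3, CHO1, CHO2, ITR1, PSD1 and EKI1, chosen by name for their roles in the pathway. All 10 were found among the 5449 yeast genes measured, each by 1 probe set of its own, and all lay above background on all 6 arrays. Clioquinol is a hydroxyquinoline drug known as a chelator of transition metals. The tested cultures grew for 5 h in rich YPD medium with 80 µM CQ (3 arrays), and the control cultures grew for 5 h in YPD with 1% of the solvent dimethyl sulfoxide (DMSO, 3 arrays). Both groups were the wild-type haploid laboratory strain BY4742, which carries deletions at the marker genes HIS3, LEU2, LYS2 and URA3, and each array held total RNA of 1 biological replicate. The labels do not give the DMSO content of the CQ cultures, so effects of CQ and of the solvent cannot be told apart where that content differed.

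In budding yeast, many genes of phospholipid synthesis share a promoter element, the inositol-sensitive element, bound by the activator pair Ino2 and Ino4. The repressor Opi1 is held at the endoplasmic reticulum by phosphatidic acid and the membrane protein Scs2, and it moves to the nucleus and turns these genes down when inositol lets the cell use up phosphatidic acid. INO1, which encodes the enzyme that makes inositol phosphate from glucose 6-phosphate, is the textbook target of this circuit. The enzymes encoded by CHO1, PSD1, CHO2 and OPI3 act in turn to make phosphatidylserine, phosphatidylethanolamine and phosphatidylcholine.

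INO1 was the member that stood out: its transcript was 15.9-fold higher with CQ than with DMSO, while the differences of the other 9 genes stayed under 2-fold in either direction. OPI1, EKI1, CHO2 and ITR1 rose by smaller amounts, and INO2, INO4, CHO1, PSD1 and OPI3 did not pass the test. In all, 5 of the 10 genes were called higher with CQ and 0 lower by limma at an adjusted p under 0.05, and at an unadjusted p under 0.05 the counts were 5 higher and 1 lower, INO4. Over all 5449 genes 68.0% were called, 36.1% higher and 31.9% lower, so that the share of members called was not above that of the transcriptome. The median log2 difference was 0.25 over the 10 genes and 0.025 over all genes. When arrays were centred on their medians, the members split into 4 higher and 1 lower, and all genes into 1578 higher and 2211 lower, against 1969 higher and 1739 lower as deposited. That centring moved the median of all genes to -0.11 and that of the members to 0.11. Without CQ replicate 2, 6 members were called higher and 1 lower.

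**Figure D1:**
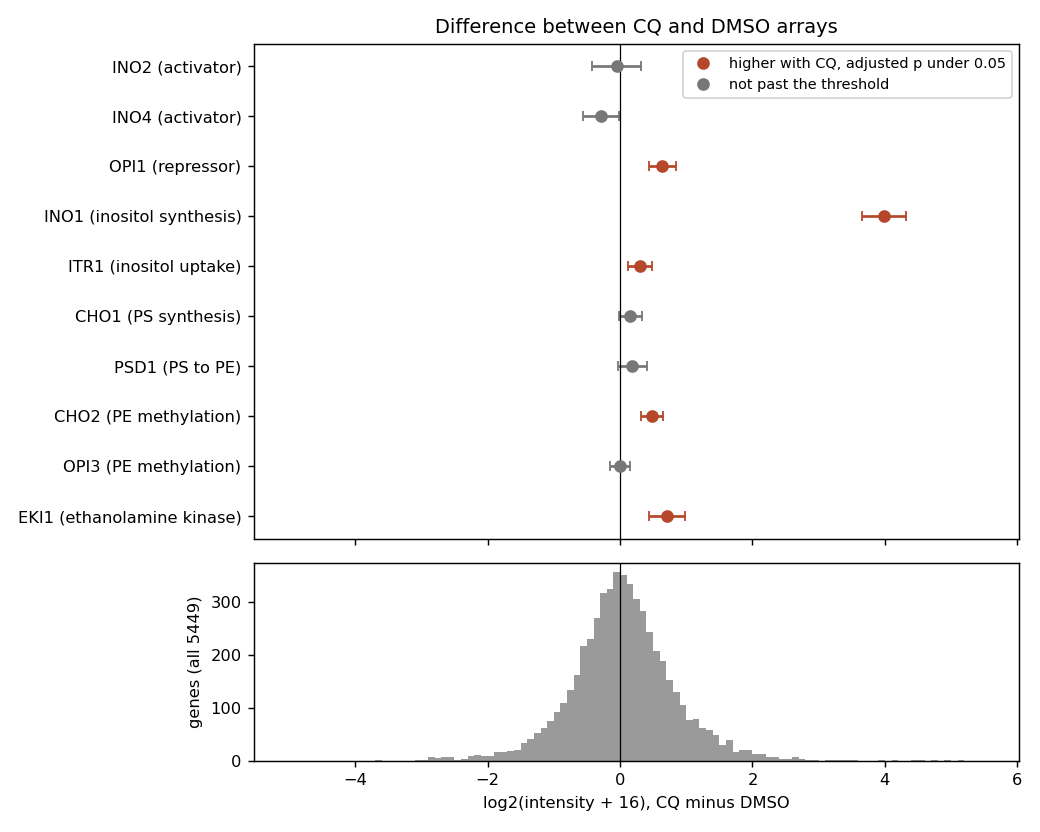
Upper panel: log2(intensity + 16) of CQ minus DMSO for the 10 genes, with points for the fitted difference, bars for its 95% interval and colour for the call (PS, phosphatidylserine; PE, phosphatidylethanolamine). Lower panel: histogram of the same difference over all 5449 genes. INO1 lies at 3.99, in the far right tail of the histogram, and the other 9 genes lie between -0.29 and 0.71.

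The arrays gave 3 checks that bear on these values. CQ replicate 2 stood apart from the other arrays on the second principal component of all genes (5.48% of the variance), at -14.49 against -0.75 to 9.12, and the members whose calls changed without it are named beside their values. The log2 ratio of the 3' to the 5' probe set, which reflects how intact the RNA was, averaged over 6 control genes 1.15 to 1.53 on the CQ arrays and 0.88 to 0.96 on the DMSO arrays, and its part in the differences was not tested. LEU2, LYS2 and URA3 lay under background on all 6 arrays, as the strain's genotype calls for, while HIS3 gave 881 ± 209 with CQ and 1598 ± 92.1 with DMSO (SD, n = 3 each), above background on all 6 arrays. That signal goes against a loss of the whole HIS3 gene, and where its probes lie relative to the deletion was not analysed here. The strain is of mating type alpha: the summed intensity of 4 alpha-specific genes was 7779 to 8481 on CQ arrays and 17141 to 18197 on DMSO arrays, and that of 5 a-specific genes was 634 to 755 on CQ arrays and 381 to 418 on DMSO arrays. Of the 5, MFA1, MFA2, STE2 and BAR1 rose (0.37 to 1.31) and AGA2 did not pass (-0.23 ± 0.12, limma adjusted p = 0.11). The part of these shifts in the results was not tested. The arrays carry no measure of total mRNA per cell, so fewer transcripts per cell and a smaller share of the mRNA cannot be told apart.

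INO2 encodes the activator subunit with the transactivating domain. Its probe set read 196, 147 and 248 on CQ replicates 1, 2 and 3, against 216, 189.8 and 198 on the DMSO replicates. The groups overlapped, and the CQ arrays spread more widely around nearly the same mean. The means were 197 ± 50.8 with CQ and 201 ± 13.3 with DMSO (SD, n = 3 each), a log2 difference of -0.05 ± 0.16 (SE; 95% interval -0.43 to 0.32; limma adjusted p = 0.791). Without CQ replicate 2, the lowest array, the difference was 0.13.

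INO4 encodes the partner of Ino2, which is needed for DNA binding of the pair. It read 842, 1166 and 1031 with CQ, against 1215, 1193 and 1283 with DMSO. Each CQ array lay below each DMSO array, but CQ replicate 2 came within a short distance of the lowest DMSO array. The log2 difference of -0.29 ± 0.12 (95% interval -0.56 to -0.014) missed the threshold after adjustment (limma adjusted p = 0.0601). It passed without CQ replicate 2 (-0.39, adjusted p = 0.00696), and also after quantile normalization and with the median or the 75th percentile of the arrays set equal (-0.40, -0.42 and -0.35). Without CQ replicate 1, the lowest array, the difference was -0.16.

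OPI1, the gene of the repressor, was the one of the 3 regulators among the members that passed the test. Its intensities were 1706, 1961 and 1985 with CQ, against 1132, 1226 and 1258 with DMSO. All 3 CQ arrays lay above all 3 DMSO arrays with a wide gap. OPI1 rose by 0.64 ± 0.09 on the log2 scale, or 1.55-fold (limma adjusted p = 0.00036), and it passed under all 16 alternative settings, between 0.50 and 0.71. OPI1 itself has an inositol-sensitive element in its promoter and is known as one of the targets of the circuit.

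**Figure D2:**
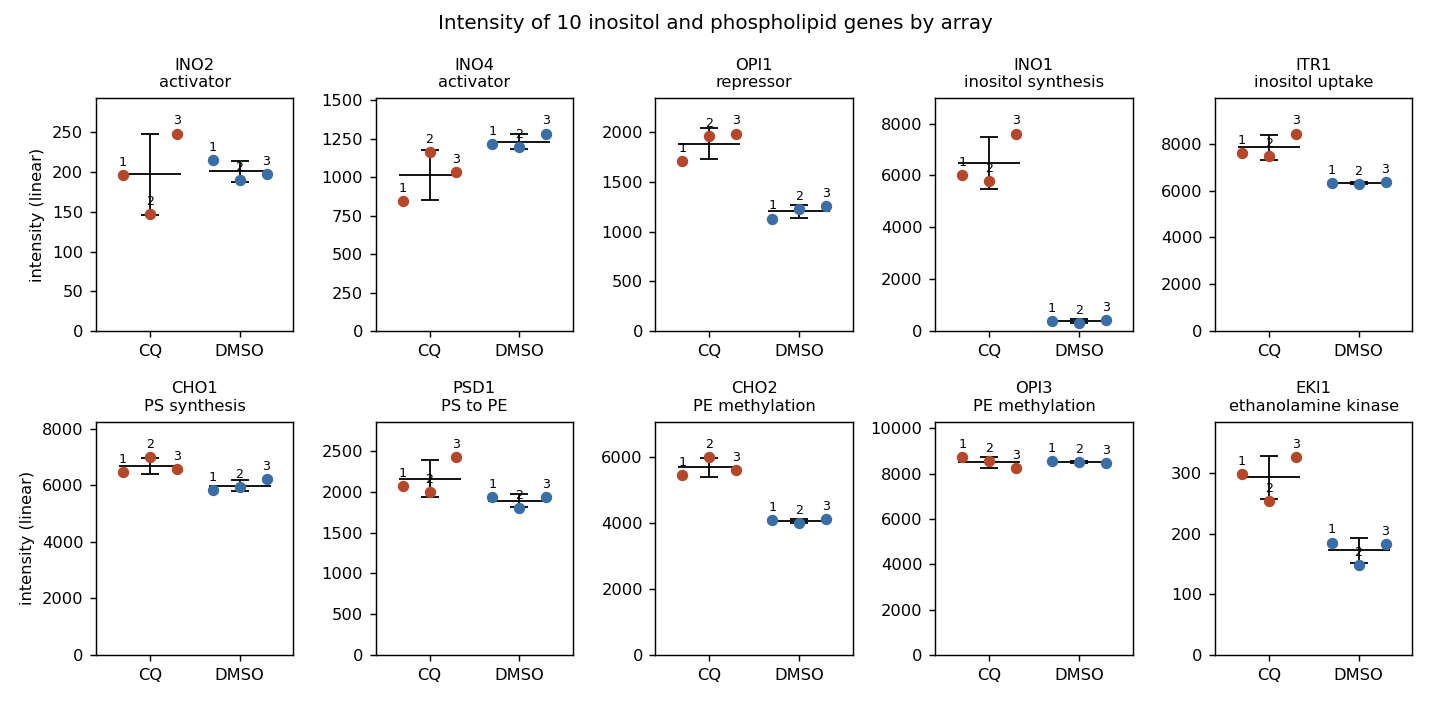
Linear intensity of each of the 10 genes on the 3 CQ and 3 DMSO arrays, with points for arrays (replicate numbers above them), long bars for the group mean and error bars for the SD (n = 3), and a separate axis from 0 for each gene. The INO1 panel shows CQ arrays at 5792 to 7617 and DMSO arrays at 324 to 450.1, while OPI3 sits at the same height in both groups.

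INO1 read 6021, 5792 and 7617 on the CQ arrays, against 407, 324 and 450.1 on the DMSO arrays. The lowest CQ array was far above the highest DMSO array. Mean intensities were 6477 ± 994 with CQ and 394 ± 63.8 with DMSO (SD, n = 3 each), and the log2 difference was 3.99 ± 0.15 (95% interval 3.65 to 4.32; limma adjusted p = 9.5e-07). In the order of all 5449 differences INO1 stood at place 8 from the top. The difference stayed between 3.84 and 4.09 under the 16 alternatives, among them leaving out each array in turn.

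ITR1 encodes the main myo-inositol transporter of the plasma membrane. Its probe set read 7619.6, 7468 and 8438 with CQ, against 6331, 6289 and 6382 with DMSO. Every CQ array was brighter than every DMSO array, and the DMSO arrays were almost alike. ITR1 rose by 0.31 ± 0.08, or 1.24-fold (limma adjusted p = 0.00799), and did not pass with arrays centred on their median (0.17, adjusted p = 0.0751). It was bright, at 53.9% of the array maximum with CQ and 43.5% with DMSO, where a difference can be understated.

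The first enzyme of the main route to phosphatidylethanolamine, the phosphatidylserine synthase CHO1, read 6476, 6996 and 6578 with CQ, against 5829, 5933 and 6211 with DMSO. The groups did not overlap, yet the gap between them was smaller than the range within either group. CHO1 differed by 0.16 ± 0.07 (95% interval -0.012 to 0.33), and the limma adjusted p of 0.088 missed the threshold. It was called higher with quantile normalization (0.25, adjusted p = 0.0142) and with an intensity trend in the variance model (0.16, adjusted p = 0.024), and it stood at 0.022 with arrays centred on their median.

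PSD1, which encodes the mitochondrial enzyme that converts phosphatidylserine to phosphatidylethanolamine, read 2068, 2001 and 2427 with CQ, against 1945, 1805 and 1938 with DMSO. The CQ arrays were the brighter ones throughout, with CQ replicate 3 above the rest. The log2 difference of 0.19 ± 0.09 (95% interval -0.03 to 0.40) did not pass (limma adjusted p = 0.109), and it passed without CQ replicate 2 (0.24, adjusted p = 0.0412).

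CHO2 encodes the methyltransferase of the first methylation step from phosphatidylethanolamine to phosphatidylcholine. CHO2 read 5472, 6006 and 5610.1 with CQ, against 4101, 4009 and 4119 with DMSO, with a clear gap between the groups. The increase of 0.48 ± 0.07, or 1.39-fold, passed the test (limma adjusted p = 0.000562) and all 16 alternatives (0.34 to 0.56).

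OPI3, the gene of the enzyme that carries out the later methylation steps, read 8721, 8554 and 8247 with CQ, against 8545, 8517 and 8459 with DMSO. The DMSO values fell inside the range of the CQ values, and the means were 8507 in both groups (SD 240.2 with CQ and 43.8 with DMSO, n = 3 each). The log2 difference was -0.00036 ± 0.07, with a 95% interval from -0.16 to 0.16, which leaves room for a change of that size (limma adjusted p = 0.997). At 58.4% of the array maximum with CQ and 58.5% with DMSO, OPI3 lay high on the scale, and a difference there can be understated.

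EKI1 encodes the ethanolamine kinase that opens the Kennedy pathway, the route to phosphatidylethanolamine from free ethanolamine. It read 298, 254 and 326 with CQ, against 185, 149 and 183 with DMSO. All 3 CQ arrays lay above the DMSO range. EKI1 rose by 0.71 ± 0.12, or 1.64-fold (limma adjusted p = 0.000916), the next largest difference after INO1, and it passed under all 16 alternatives (0.58 to 0.80).

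In the order of the differences, INO1 came first, followed by EKI1, OPI1, CHO2, ITR1, PSD1, CHO1, OPI3, INO2 and INO4. The 95% intervals of INO1 and EKI1 did not overlap, and those of every other pair of neighbours in that order did. For 8 of the 10 genes the CQ and DMSO arrays did not overlap, against 73.7% of all genes tested, and 1 of the 10 was called and at least 2-fold different, against 17.2% of all genes. Replicate spread was wider with CQ: the SD over 3 arrays was larger with CQ than with DMSO for 9 of the 10 genes, INO1 being the exception (0.21 with CQ and 0.23 with DMSO on the log2 scale), and for 74.5% of all genes.

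Partners and related genes were set against each other as the log2 ratio of their intensities on each array, which asks whether both genes of a pair moved by the same amount. Of 5 pairs, 3 had ratios that did not overlap between the groups. CHO2 gained 0.48 on OPI3, the gene of the next enzyme, whose own difference can be understated at its brightness. PSD1 lost 0.42 against PSD2, which encodes the decarboxylase of the endosomal and vacuolar compartment and rose by 0.60 ± 0.09 (limma adjusted p = 0.000601). ITR1 gained 0.19 on its paralogue ITR2, which differed by 0.11 ± 0.08 (limma adjusted p = 0.238). Each of these gave an exact two-sided permutation p of 0.1, the smallest that 3 against 3 arrays allow, and 0.167 after Benjamini-Hochberg adjustment over the 5 pairs. The ratio of INO2 to INO4 overlapped between the groups (difference 0.24, exact permutation p = 0.4, adjusted 0.4), as did that of EKI1 to the choline kinase gene CKI1 (0.15, exact permutation p = 0.3, adjusted 0.375). CKI1 itself rose by 0.56 ± 0.16 (limma adjusted p = 0.0145).

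The wider pathway was taken as 63 further genes listed by role, of which 62 were measured. Of these, 29 rose, 13 fell and 20 did not pass, which is 67.7% called against 68.0% of all genes, and their median log2 difference was 0.17. With arrays centred on their median the split over all 72 measured phospholipid genes, the 10 included, was 27 higher and 18 lower, against 34 higher and 13 lower as deposited.

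**Figure D3:**
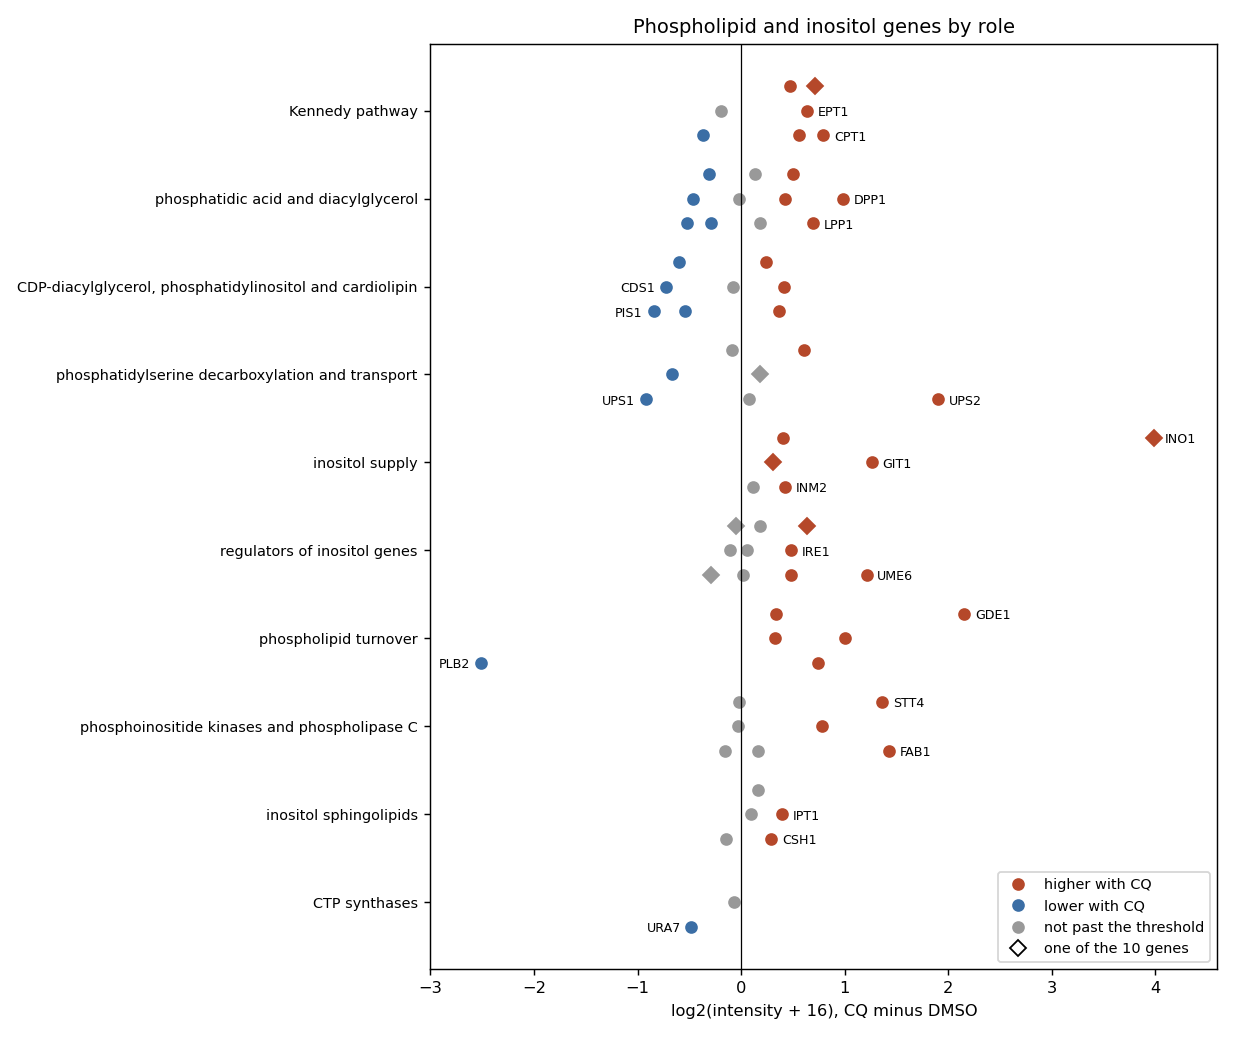
Log2 difference of CQ minus DMSO for the measured genes of each role list, with 1 point per gene (height within a row has no meaning), coloured by call. Diamonds mark those of the 10 genes that belong to a role list. CHO1, CHO2 and OPI3 belong to none and are not drawn. INO1 at 3.99 lies far to the right of the other points, UPS2 at 1.90 and GDE1 at 2.16 are the next highest, and PLB2 at -2.52 is the lowest.

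Of 6 measured genes of inositol synthesis and uptake, INO1 and ITR1 included, 5 rose and ITR2 did not pass, against 36.1% of all genes higher, and the median was 0.41, against 0.025 over all genes. GIT1, the gene of the permease for glycerophosphoinositol, read 428, 356 and 582 with CQ against 197, 167 and 168 with DMSO, and rose by 1.26 ± 0.17 (limma adjusted p = 0.000257). INM2, which encodes an inositol monophosphatase that acts after Ino1, rose by 0.42 ± 0.08 (limma adjusted p = 0.00214). With arrays centred on their median 3 of the 6 were called higher, namely INO1, GIT1 and INM2. Of the 5 that rose, 1 also did not pass without CQ replicate 1, DMSO replicate 1 or DMSO replicate 2 (limma adjusted p = 0.0511 to 0.0618).

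In the list of 8 genes for CDP-diacylglycerol, phosphatidylinositol and cardiolipin 3 rose, 4 fell and 1 did not pass, with a median of -0.31. With quantile normalization or with either centring the list had 2 higher and 4 lower. Of the 3 that rose, 1 kept its call under only 8 of the 16 alternatives. Over all genes 36.1% were higher and 31.9% lower. The largest differences in the list were those of PIS1 and CDS1. PIS1, the gene of phosphatidylinositol synthase, read 4280.5, 4597 and 4129 with CQ against 7558, 7971 and 7862 with DMSO. It fell by 0.85 ± 0.08 on the log2 scale (limma adjusted p = 3.23e-05), and CDS1, which makes the CDP-diacylglycerol that both PIS1 and CHO1 products need, fell by 0.72 ± 0.08 (limma adjusted p = 0.0001). The list for inositol sphingolipids, which take their head groups from phosphatidylinositol, had 2 of 5 genes higher and 3 not past the threshold. That is 40% called, against 68.0% of all genes. The 2 higher genes were IPT1 (0.39 ± 0.07) and CSH1 (0.29 ± 0.09). CSH1 did not pass without CQ replicate 1, without DMSO replicate 2, under quantile normalization or with medians set equal (0.15 to 0.26), and in the last case 1 gene of the list was called lower.

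Among the kinases that phosphorylate phosphatidylinositol or its phosphates, STT4, a 4-kinase of the plasma membrane, rose by 1.36 ± 0.07 and FAB1, a 5-kinase of the vacuole, by 1.43 ± 0.09 (limma adjusted p = 2.64e-06 and 7.09e-06). STT4 read 1751, 1781 and 1741 with CQ against 662, 669 and 687 with DMSO, so that replicates lay close together within each group. In that list of 7 genes, phospholipase C included, 3 rose and 4 did not pass. That is 42.9% called, against 68.0% of all genes. Of the 4 not past the threshold, 1 was called lower under quantile normalization or with medians set equal. Another of the 4 was called higher without CQ replicate 2 (0.29, limma adjusted p = 0.00924).

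The Kennedy pathway, which makes phosphatidylethanolamine and phosphatidylcholine from ethanolamine and choline, had 7 measured genes. Of these 5 rose, 1 fell and 1 did not pass, against 36.1% higher and 31.9% lower over all genes, and their median was 0.56. Besides EKI1 and CKI1, the final transferases CPT1 (0.79 ± 0.08) and EPT1 (0.64 ± 0.12) rose. The gene that fell, PCT1 (-0.37 ± 0.07), makes CDP-choline. HNM1, the choline transporter gene, was the one not past the threshold (both were singled out with their values known; -0.19 ± 0.08, limma adjusted p = 0.0591), and without CQ replicate 3, under quantile normalization, with either centring or with an intensity trend 2 of the 7 were called lower. URA7, the CTP synthase gene whose product supplies the CTP for these steps, fell by 0.48 ± 0.08 (limma adjusted p = 0.00089), while the other CTP synthase gene on the list, URA8, did not pass.

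Genes around phosphatidic acid, the lipid that holds Opi1 outside the nucleus, were called higher in 4 of 11 cases and lower in 4, and 3 missed the threshold. Over all genes 36.1% were higher and 31.9% lower. The lower genes were PAH1, a phosphatidic acid phosphatase gene (-0.52 ± 0.12, limma adjusted p = 0.00596), NEM1 (-0.47 ± 0.14), ALE1 (-0.31 ± 0.11) and SPO7 (-0.29 ± 0.10). Of these, PAH1 passed under all 16 alternatives. APP1, the gene of another phosphatidic acid phosphatase, lost its higher call under each of the 3 scalings, without CQ replicate 1 or 3 and without any 1 of the DMSO arrays (0.27 to 0.48), and the scalings gave 3 higher and 4 lower. The count of lower calls was 2 without CQ replicate 1, DMSO replicate 2 or DMSO replicate 3, and 1 without DMSO replicate 1. DPP1 and LPP1, which encode phosphatases of phosphatidic acid and diacylglycerol pyrophosphate, had the largest differences there. DPP1 read 3068, 2834 and 3089 with CQ against 1575, 1497 and 1446 with DMSO (0.99 ± 0.08, limma adjusted p = 1.63e-05), and LPP1 rose by 0.70 ± 0.09 (limma adjusted p = 0.00019).

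Among 10 regulators of inositol genes, INO2, INO4 and OPI1 included, 4 rose and 6 did not pass. That is 40% called, all of them higher, against 68.0% of all genes called and 36.1% higher. UME6 encodes a DNA-binding protein that recruits the Sin3 and Rpd3 repressor complex to INO1, among many other genes. It read 602, 836 and 808 with CQ against 295, 307 and 331 with DMSO, and rose by 1.21 ± 0.13 (limma adjusted p = 7.88e-05). IRE1, the gene of the sensor of unfolded proteins that yeast needs to grow without inositol, rose by 0.49 ± 0.11 (limma adjusted p = 0.00548). With medians set equal 4 of the 10 were called higher and 2 lower, and without CQ replicate 2 the counts were 5 and 1.

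Lipid transfer to and in mitochondria held a split pair. UPS2, whose product carries phosphatidylserine toward Psd1, read 2569.5, 2713 and 2570.03 with CQ against 756, 732 and 588 with DMSO, a rise of 1.90 ± 0.10 (limma adjusted p = 3.72e-06). UPS1, whose product carries phosphatidic acid toward cardiolipin synthesis, fell by 0.92 ± 0.10 (limma adjusted p = 7.04e-05). Both belong to a wider list of 7 genes for phosphatidylserine decarboxylation and transport, PSD1 and PSD2 included. In that list 2 rose (UPS2 and PSD2), 2 fell (UPS1 and SEC14) and 3 did not pass. Over all genes 36.1% were higher and 31.9% lower.

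Of 6 measured genes of phospholipid turnover 5 rose and 1 fell, with a median of 0.54, where 68.0% of all genes were called in either direction. GDE1 encodes the enzyme that releases choline from glycerophosphocholine. It read 3884, 3869 and 3839 with CQ against 884, 859 and 822 with DMSO, and rose by 2.16 ± 0.07 (limma adjusted p = 5.97e-07). PLB2, a phospholipase B gene, read 355, 335 and 318 with CQ against 1769, 2141 and 2093 with DMSO, and fell by 2.52 ± 0.10 (limma adjusted p = 1.02e-06). With arrays centred on their median 3 of the 6 were called higher and 1 lower.

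The pattern of INO1 over the 6 arrays, taken as log2 values minus the gene's DMSO mean, was compared with that of 5356 genes outside the 10 that lay above background in their brighter group. The 5 nearest by Euclidean distance over the 6 arrays were THI4 (0.64), VEL1 (0.75), ZPS1 (0.91), GTO3 (0.997) and FRE7 (1.04), and none of them belongs to the phospholipid lists. THI4, a thiamine synthesis gene, averaged 1450.4 ± 335 with CQ and 80.6 ± 12.8 with DMSO. VEL1 lay under background on all 3 DMSO arrays, at 12.6 to 17.3, which gives a bound of at least 8.65-fold higher, so that its distance to INO1 and its place among the 5 are not settled. With 2 groups such a distance mostly reflects the size of the difference between them.

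**Figure D4:**
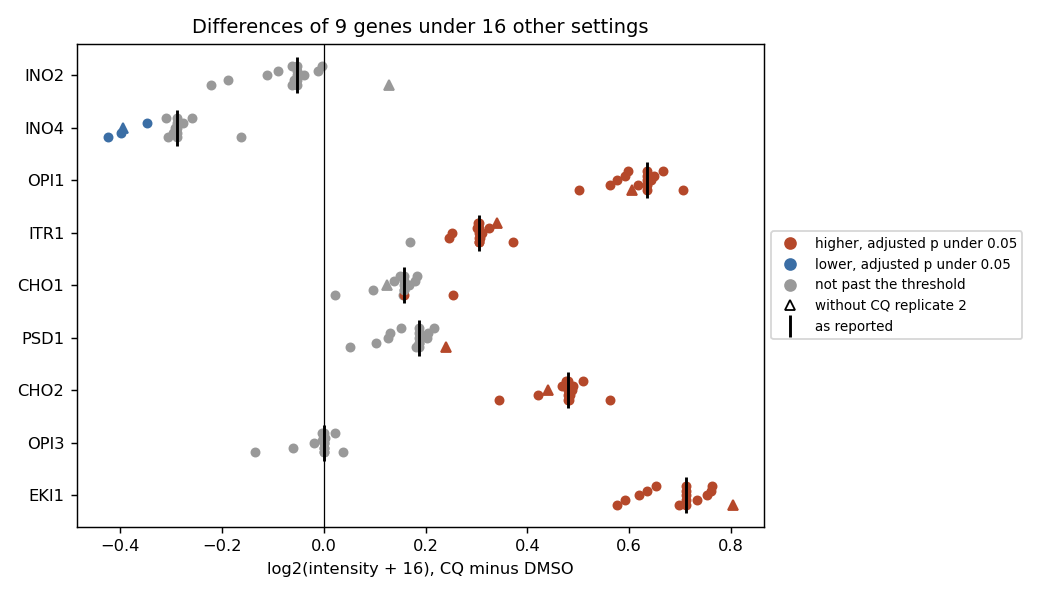
Log2 difference of CQ minus DMSO for the 9 genes other than INO1 under 16 alternative settings, with points for settings, triangles for the fit without CQ replicate 2, vertical bars for the reported value and colour for the call. OPI1, CHO2 and EKI1 are red in each setting, ITR1 has 1 grey point at 0.17, and INO4 has 4 blue points between -0.42 and -0.35.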

How the data were processed

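The authors' deposited table holds 1 linear intensity per probe set and array; per the labels, biotin-labelled cRNA was hybridised after hot phenol extraction. No source used here names the summarising software or says whether arrays were scaled to each other. Of 10928 probe sets, 5498 were annotated to 1 S. cerevisiae gene (12 symbols updated by identifier), and the brightest probe set was kept for each of 47 genes with several, leaving 5449. Background was the 95th percentile of 1746 fission yeast probe sets on each array (41.8 to 59.8). Differences of log2(intensity + 16) were fitted with limma 3.58.1 in R 4.3.3 (lmFit, eBayes, two-sided, 3 CQ and 3 DMSO arrays), with Benjamini-Hochberg adjustment over all genes and a threshold of 0.05. "Rose" and "fell" are used for genes past it, values after ± are SE for log2 differences, and fold changes are on the log2(intensity + 16) scale, which understates changes of dim genes. For VEL1 each DMSO array was raised to its background level. On simulated data with 5449 genes, 95.5% of 200 genes changed by 1 on the log2 scale were recovered. Recovery of smaller differences, such as those of the members other than INO1, was not simulated. Plots used matplotlib 3.10.9.

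The number of arrays limits the precision. The members and lists were chosen with earlier results of these data known. Named were the 10 members, the paired partners, the 2 non-members with the largest difference in each role list (past the threshold, groups not overlapping, above background), the 5 genes nearest to INO1 and the strain and mating type genes. PCT1, HNM1, APP1, URA8, PAH1, NEM1, ALE1, SPO7 and SEC14 fall outside this rule. Promoter motifs were not analysed here. Levels of different probe sets were not compared, since probes differ in brightness.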

Additional observations from a re-analysis of the deposited data

How the results depend on the processing

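The 16 alternatives were quantile normalization, arrays centred on their median or 75th percentile, pseudocounts of 1 and 64, leaving out genes under background, the mean of a gene's probe sets, an intensity trend in eBayes, its robust form, a replicate block, and leaving out each array in turn. INO1, OPI1, CHO2 and EKI1 passed under all 16, ITR1 under 15, INO4 under 4, CHO1 under 2, PSD1 under 1, and INO2 and OPI3 under 0. The count of members called lower was 1 with quantile normalization and with either centring, against 0 as reported, and 0 to 1 on leaving out 1 array. Signs turned for values near 0: INO2 stood at 0.13 without CQ replicate 2 (-0.22 to 0.13 on leaving out 1 array), and OPI3 at 0.039 with quantile normalization and between -0.018 and 0.022 on leaving out 1 array, positive without CQ replicate 3 or DMSO replicate 1 or 2. The replicate block gave 1971 genes higher and 1738 lower, 5 members higher, 0 lower (limma, as reported) and 33 phospholipid genes higher, and changed no member's call. Same-numbered arrays deviated together only weakly (correlations 0.05, 0.12 and 0.14), each array correlating best with its own number, a hint from the data and not from the design. Differences of the bright genes OPI3 and ITR1 can be understated near the top of the scale, which was not tested. INO1, CHO1 and CHO2 were bright too, at 44.5%, 45.9% and 39.1% of the array maximum with CQ.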
